A study of Mus musculus with 2 samples.

Results

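The genes described here encode 3 small families of RNA-binding proteins that shorten the life of messenger RNAs in immune cells: the Regnases (Zc3h12a, Zc3h12b, Zc3h12c and Zc3h12d), the Roquins (Rc3h1 and Rc3h2) and the tristetraprolin family (Zfp36, Zfp36l1 and Zfp36l2). They were chosen by their families, with earlier results of these data known, and are 9 of the 21938 protein-coding genes of the annotation. For each gene the locus was the gene body in GENCODE M21 plus 20 kb either side, on the mouse build GRCm38. Gata3 ChIP-seq had been made from splenic TH2 cells expanded in vitro, in 2 libraries of a single condition that the labels number 1 and 2. The antibody was anti-GATA3 (D13C9), and the libraries were made by ChIPmentation, in which a transposase cuts the precipitated chromatin and adds the adaptors for sequencing. The labels name ILC2 as the cells in the extraction protocol and TH2 cells in every other field, they give no genotype, age or sex, and they do not say whether the libraries came from separate cultures, so the spread between them may be technical. Neither an input nor an IgG library was analysed, and 1 condition allows no comparison of groups.

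Regnases are endoribonucleases with a CCCH zinc finger that cut stem-loops in the 3′ untranslated regions of cytokine and activation mRNAs. Roquins bind similar stem-loops through their ROQ domain and recruit the CCR4-NOT deadenylase, and the tristetraprolin family recruits the same complex to AU-rich elements. Gata3, the factor precipitated here, is the transcription factor that defines TH2 cells, and it binds DNA at GATA sequences.

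Library 1 held 40526613 deposited reads and library 2 held 24970952, and counts were scaled to RPM, the reads in a window for each 1000000 of the 40504814 and 24959052 reads on the autosomes, X and Y. A single read was thus worth 0.0247 RPM in library 1 and 0.0401 RPM in library 2. Each library was tested on its own in 200-bp windows against the highest of its library mean, 5-kb mean and 10-kb mean by a one-sided exact Poisson test at a q of 0.01, adjusted by Benjamini-Hochberg over every window with a read, and a peak was called shared where the peaks of both libraries overlapped. This gave 71726 peaks in library 1, 28204 in library 2 and 23806 shared peaks genome-wide. As the height of a peak found in both, the lower RPM was taken, each library being read at its own summit, and intervals are exact 95% Poisson intervals that cover counting error only. Shared peaks lay in the loci of Il4 and Il13, which encode the TH2 cytokines, and of Gata3 itself, and the tallest of Il4 and Il13 was the same peak (5.43 RPM in library 1, 5.53 RPM in library 2). Il5, another TH2 cytokine gene, had 5 shared peaks. Tbx21, which encodes the factor that defines TH1 cells, had 4, and Ifng, a TH1 cytokine gene, had 2. The presence of peaks thus did not separate these lineage genes, and 54.8% of all protein-coding genes had a shared peak in the locus. The tallest held 2.54 and 2.04 RPM at Il5 in libraries 1 and 2, and 1.75 and 1.72 RPM at Tbx21. At Ifng it held 0.444 and 0.681 RPM. Promoters, taken as 2 kb either side of the gene start, held a shared peak at Il4, Il13 and Il5. Those of Gata3, Tbx21 and Ifng held none.

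The 9 loci held 19 shared peaks. At least 1 lay in the locus of 8 of 9 genes, against 54.8% of all protein-coding genes, and Zc3h12b had none. Inside the gene body a shared peak was found in 4 of 9 genes, against 29.4% of all, and within 2 kb of the gene start in 1 of 9, against 11.7% of all. The 3 tallest shared peaks were 2.9 kb upstream of Zfp36, 6.3 kb upstream of Zc3h12d and in intron 1 of Zc3h12d. These 3 stood above the 90 percentile of height among all shared peaks, and the other 16 stood at or below the 59.8 percentile.

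The sequences under the highest window of 10 of the 14 shared peaks with a GATA sequence show where in the window it lies. The remaining windows with a GATA sequence were at Zc3h12c and Rc3h2, and no window without one is printed. Each printed sequence is the 201 bases centred on the library 1 summit, from the RefSeq copy of GRCm38. It is on the plus strand whatever the strand of the gene. Capitals mark the GATA sequences AGATAA or AGATAG or TGATAA or TGATAG, searched on both strands, so that a match on the minus strand reads TTATCT or CTATCT or TTATCA or CTATCA here, and the AP-1 sequence TGACTCA, which reads TGAGTCA on the other strand. The name gives the distance of the summit from the gene start in the direction of transcription.
Zc3h12a -10760 bp, chr4:125138500-125138700, plus strand: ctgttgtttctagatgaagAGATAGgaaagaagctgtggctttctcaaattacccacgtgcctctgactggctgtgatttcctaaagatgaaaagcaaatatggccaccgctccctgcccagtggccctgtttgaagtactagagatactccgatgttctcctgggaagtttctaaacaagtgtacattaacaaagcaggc
Zc3h12c +57422 bp, chr9:52111050-52111250, plus strand: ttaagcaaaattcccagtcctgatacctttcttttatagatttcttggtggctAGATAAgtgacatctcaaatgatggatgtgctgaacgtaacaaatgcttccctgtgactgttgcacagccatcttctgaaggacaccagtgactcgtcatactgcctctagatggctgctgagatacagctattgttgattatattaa
Zc3h12d -6270 bp, chr10:7826100-7826300, plus strand: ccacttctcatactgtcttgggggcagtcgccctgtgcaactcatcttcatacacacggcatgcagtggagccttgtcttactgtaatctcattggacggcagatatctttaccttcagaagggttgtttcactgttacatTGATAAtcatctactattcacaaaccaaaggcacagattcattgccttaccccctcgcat
Zc3h12d +7130 bp, chr10:7839500-7839700, plus strand: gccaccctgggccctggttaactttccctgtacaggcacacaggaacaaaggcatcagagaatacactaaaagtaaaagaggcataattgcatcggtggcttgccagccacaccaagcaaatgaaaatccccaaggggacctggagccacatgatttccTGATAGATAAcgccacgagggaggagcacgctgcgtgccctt
Rc3h2 +753 bp, chr2:37422050-37422250, plus strand: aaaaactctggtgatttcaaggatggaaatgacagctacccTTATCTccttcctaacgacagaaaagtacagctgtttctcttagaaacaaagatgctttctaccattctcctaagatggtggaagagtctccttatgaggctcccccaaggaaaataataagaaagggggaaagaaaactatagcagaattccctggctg
Rc3h2 +3953 bp, chr2:37418850-37419050, plus strand: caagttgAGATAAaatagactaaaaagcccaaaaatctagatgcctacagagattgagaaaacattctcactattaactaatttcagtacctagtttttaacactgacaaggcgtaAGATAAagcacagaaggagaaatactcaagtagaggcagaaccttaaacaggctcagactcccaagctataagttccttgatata
Zfp36 -2947 bp, chr7:28383100-28383300, plus strand: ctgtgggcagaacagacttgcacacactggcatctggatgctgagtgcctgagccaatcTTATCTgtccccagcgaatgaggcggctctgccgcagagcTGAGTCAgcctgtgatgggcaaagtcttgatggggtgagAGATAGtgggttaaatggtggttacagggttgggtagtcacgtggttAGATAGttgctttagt
Zfp36 +6153 bp, chr7:28374000-28374200, plus strand: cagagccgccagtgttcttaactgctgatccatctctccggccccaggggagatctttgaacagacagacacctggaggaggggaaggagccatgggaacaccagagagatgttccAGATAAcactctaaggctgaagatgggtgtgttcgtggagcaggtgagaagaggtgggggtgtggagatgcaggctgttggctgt
Zfp36l1 -5787 bp, chr12:80118700-80118900, plus strand: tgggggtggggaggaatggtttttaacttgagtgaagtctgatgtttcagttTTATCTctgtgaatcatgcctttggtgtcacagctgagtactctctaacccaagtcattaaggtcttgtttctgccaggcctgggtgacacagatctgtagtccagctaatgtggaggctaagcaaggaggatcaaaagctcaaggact
Zfp36l2 +8397 bp, chr17:84179450-84179650, plus strand: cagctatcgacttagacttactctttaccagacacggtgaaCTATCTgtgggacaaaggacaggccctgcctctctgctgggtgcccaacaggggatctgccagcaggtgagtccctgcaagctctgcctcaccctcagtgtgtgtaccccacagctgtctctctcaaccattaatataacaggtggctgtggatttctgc
A GATA sequence lay within 100 bp of 14 of the 19 shared summits, against 71.0% of the 23806 shared summits genome-wide. An AP-1 sequence lay within 100 bp of 2 of the 19, both at Zfp36, against 12.3% of all shared summits. Of 38 equally wide windows placed 1 kb away from these summits on each side, 11 held a GATA sequence, and beside all shared summits the share was 33.4%. Distances of a sequence from a summit are to its centre, and a match of letters does not show that a factor was bound there.

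**Figure D1:**
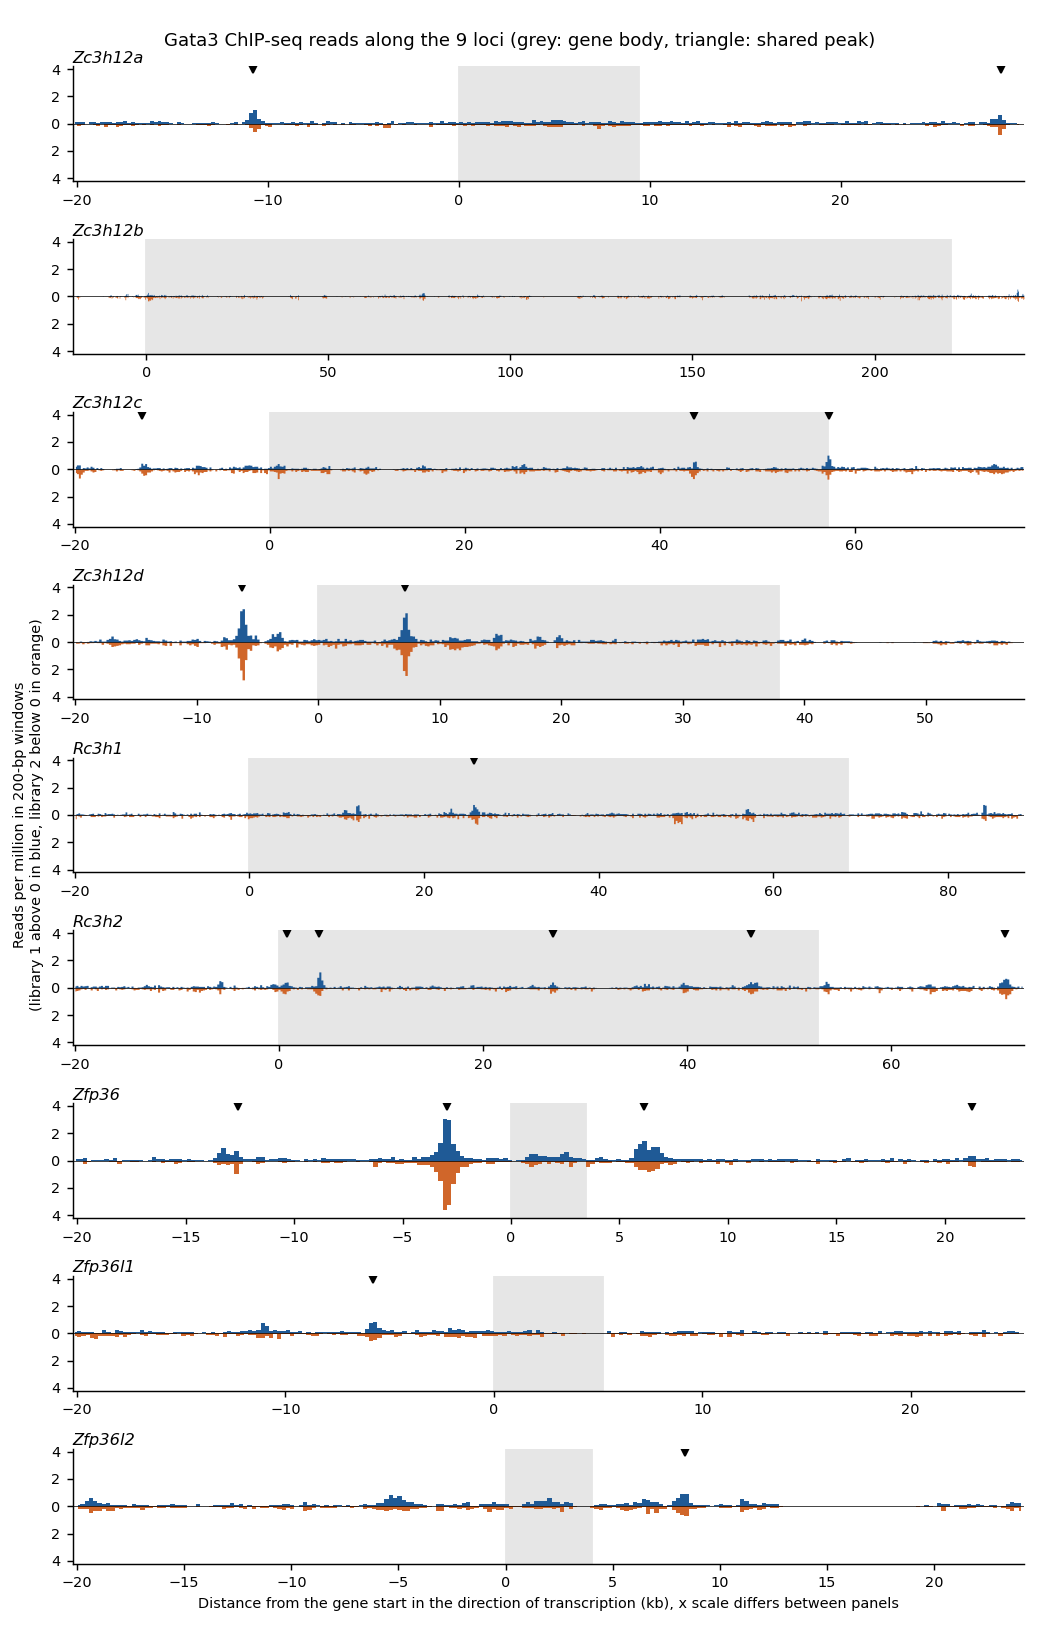
RPM in 200-bp windows along the 9 loci, with library 1 above 0 and library 2 below 0, against the distance from the gene start in kb. The grey band is the gene body and triangles mark the 19 shared peaks. The tallest stand upstream of Zfp36 and on both sides of the start of Zc3h12d, and Zc3h12b has no triangle.

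Zc3h12a encodes Regnase-1, the best studied endonuclease of the family and a brake on T cell activation. The gene lies at chr4:125118423-125127840 on the minus strand and has 6 exons. Both of its shared peaks lay outside the gene body, and with 10 kb either side in place of 20 kb its locus held 0. The peak 10760 bp upstream held 43 reads (1.06 RPM, 95% interval 0.768 to 1.43) in library 1 and 19 reads (0.761 RPM, 0.458 to 1.19) in library 2. These heights were 7.03-fold and 5.86-fold over the local background (q = 3.1e-19 and 1.3e-06, one-sided exact Poisson test), and the intervals of the libraries overlapped. In library 1 this fold was exceeded among the 19 peaks only by that of the intron 2 peak of Rc3h2, although its height stood only at the 45.4 percentile of all shared peaks. The local background there was 6.12 reads per window in library 1 and 3.24 in library 2. Its window holds AGATAG, 79 bp from the summit. The other peak lay 28390 bp from the start, inside Meaf6, a gene for a subunit of histone acetyltransferase complexes, with 26 reads (0.642 RPM) in library 1 and 20 reads (0.801 RPM) in library 2. Its window held neither a GATA nor an AP-1 sequence.

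Zc3h12b encodes Regnase-2 and lies at chrX:95711678-95932637 on the plus strand. Of 589 genes on any chromosome, not X alone, with a locus within 20% of its 261 kb, 21.9% had no shared peak and the median was 2. Library 1 called peaks at +75922 bp, with 14 reads against 6 in library 2 (library 2 q = 0.56, one-sided exact Poisson test), and at +239322 bp, with 29 reads against 9 (library 2 q = 0.27). Neither was called in library 2. Reads were sparse over the whole locus, at 0.175 RPM per kb in library 1 and 0.192 in library 2. Of its 1306 windows 39.4% held no read in either library, with an unbroken run of 9000 bp. Whether reads with a unique position could map in that run was not tested. The density was 0.478 and 0.524 of the library means but at the mean of chromosome X in library 1 and 0.941 of it in library 2. Chromosome X as a whole carried 0.444 and 0.522 of the density of the autosomes. The highest window near the annotated start held 12 reads in each library (0.296 and 0.481 RPM), at 322 bp and 522 bp downstream of it. Those windows were 3.66-fold and 3.90-fold over the background and missed the threshold in both libraries (q = 0.016 and 0.020, one-sided exact Poisson test). The protein-coding transcripts of Zc3h12b start 187355 bp and 210712 bp further downstream, and no shared peak lay within 2 kb of either start. At this depth a missing peak does not show that the gene was unbound.

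Zc3h12c encodes Regnase-3, which is known mainly from macrophages. The gene lies at chr9:52111344-52168572 on the minus strand, has 6 exons and had 3 shared peaks. The tallest, at +57422 bp, was 194 bp past the annotated gene end and held 42 reads (1.04 RPM) in library 1 and 18 reads (0.721 RPM) in library 2. Its window holds AGATAA, 45 bp from the summit. A peak in intron 3 at +43522 bp held 30 and 17 reads, at 5.72-fold and 5.00-fold over the background, with TGATAG and AGATAA at the edge of its window, 94 bp and 82 bp from the summit. The weakest lay 13078 bp upstream with 18 and 12 reads (library 2 q = 0.0053, one-sided exact Poisson test), at the 7.61 percentile of all shared peaks. Near the start itself the libraries parted: library 2 called a peak 922 bp downstream with 20 reads (0.801 RPM, q = 9.6e-06), and the highest promoter window of library 1 held 17 reads (0.420 RPM, q = 0.014, one-sided exact Poisson test) and missed the threshold. The intervals there, 0.490 to 1.24 RPM in library 2 and 0.245 to 0.672 RPM in library 1, overlapped. With 400-bp windows this promoter peak became shared. Zc3h12c was the only one of the 9 genes at which library 2, the shallower one, called more peaks than library 1, with 5 against 4.

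Zc3h12d encodes Regnase-4, expressed mainly in lymphocytes. The gene lies at chr10:7832470-7870396 on the plus strand and has 6 exons. Its 2 shared peaks were the tallest of the 4 Regnase genes and lay on either side of the start. The upstream peak, 6270 bp before the start, held 110 reads (2.72 RPM, 95% interval 2.23 to 3.27) in library 1 and 77 reads (3.09 RPM, 2.43 to 3.86) in library 2. The peak in intron 1, at +7130 bp, held 103 reads (2.54 RPM, 2.08 to 3.08) and 61 reads (2.44 RPM, 1.87 to 3.14). All 4 of these intervals overlap, so neither the libraries nor the peaks differed beyond counting error, and both peaks lay above the interval of every shared peak of the other Regnase genes in each library. They stood at the 95.4 and 94.0 percentiles of all shared peaks, at 5.57-fold and 6.41-fold over the background in library 1 and 6.27-fold and 5.07-fold in library 2 (q from 1.6e-43 to 4e-41 and from 3.6e-31 to 4.8e-20, one-sided exact Poisson test). The upstream window holds TGATAA 43 bp from the summit. The intron 1 window holds TGATAG and AGATAA, which overlap, 61 bp and 65 bp from the summit. Library 1 called 4 further peaks in the locus, at -16970, -3270, +14630 and +19880 bp, with 18 to 36 reads, and library 2 held 7 to 14 reads at the same places. In this locus 20.7% of the reads of library 1 and 22.1% of library 2 lay in the windows of the shared peaks, and outside them the density was still 1.83-fold and 1.82-fold the library mean.

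Rc3h1 encodes Roquin-1, mutated in the sanroque mouse, in which follicular helper T cells accumulate. The gene lies at chr1:160906418-160974978 on the plus strand and has 20 exons. It had 1 shared peak, in intron 2 at +25732 bp, with 34 reads (0.839 RPM) in library 1 and 20 reads (0.801 RPM) in library 2. The window of this peak held neither a GATA nor an AP-1 sequence. Protein-coding transcripts of Rc3h1 start at the gene start and at +23606 bp, so this peak lay downstream of both starts and nearer to the latter. The summits of the libraries were 250 bp apart. With summits required to lie within 100 bp of each other it was not shared, and Rc3h1 then had none. Library 1 called 4 more peaks. Of these, +12382 bp (40 reads against 14) and +84182 bp, past the gene end (38 reads against 12), narrowly missed the threshold in library 2 (q = 0.029 and 0.030, one-sided exact Poisson test). Of 2494 genes with a locus of like length, 72.7% had as many shared peaks or more.

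Rc3h2 encodes Roquin-2, which overlaps with Roquin-1 in function. The gene lies at chr2:37370069-37422903 on the minus strand and has 22 exons. Its locus held 5 shared peaks, the most of the 9 genes, and 4 of them lay in the gene body. Only 3.81% of 3363 genes with a locus of like length had as many or more in the main setting. The count at Rc3h2 depended on the setting. It fell to 0 at a q of 1e-10, and to 1 with at least 5-fold over the background or with 100-bp windows. The peak in intron 1, 753 bp after the start, was the only shared promoter peak of the 9 genes. It was also among the weakest, with 20 reads (0.494 RPM, 95% interval 0.302 to 0.763) in library 1 and 13 reads (0.521 RPM, 0.277 to 0.891) in library 2, at 3.14-fold and 4.06-fold over the background (q = 0.0017 and 0.0082, one-sided exact Poisson test). It was not shared when library 1 was thinned to as many reads as library 2, with 100-bp windows, or with summits required to lie within 100 bp. Its window holds AGATAA on the minus strand, 57 bp from the summit.

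The other peaks of Rc3h2 spread along the gene. In intron 2, at +3953 bp, the peak held 50 reads (1.23 RPM) in library 1 and 18 reads (0.721 RPM) in library 2, and its 7.35-fold over the background in library 1 was the highest of the 19 peaks, with 6.12-fold in library 2. Its window holds AGATAA at 18 bp and 91 bp from the summit. Weaker peaks lay in intron 10 at +26803 bp, with 17 and 11 reads, and in exon 21 at +46203 bp, with 18 and 15 reads. The window of the exon 21 peak held neither a GATA nor an AP-1 sequence. The intron 10 peak was at the 5.06 percentile of all shared peaks, the lowest height of the 19. Past the gene end, at +71103 bp, a peak of 30 and 20 reads lay inside Pdcl, which encodes a phosducin-like chaperone, 7532 bp from the start of that gene. Pdcl was the nearest protein-coding start to this peak and to the exon 21 peak. Library 1 called 4 more peaks in the locus, with 16 to 22 reads, where library 2 held 6 to 9.

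Zfp36 encodes tristetraprolin, the founding member of the family. The gene is short, at chr7:28376784-28380253 on the minus strand with 2 exons, and its locus of 43.5 kb also overlaps Plekhg2, Med29, Paf1 and Samd4b. The peak 2947 bp upstream was the tallest of the 19. It held 134 reads (3.31 RPM, 95% interval 2.77 to 3.92) in library 1 and 97 reads (3.89 RPM, 3.15 to 4.74) in library 2, at 6.20-fold and 5.77-fold over the background (q = 3e-55 and 1.1e-36, one-sided exact Poisson test). Its height stood at the 97.6 percentile of all shared peaks, below the 5.43 RPM at Il4. Its window was the only one of the 19 with both kinds of sequence: AGATAA on the minus strand 39 bp from the summit, AGATAG at 40 bp and at 87 bp, and the AP-1 sequence TGAGTCA 2 bp from the summit. Protein-coding transcripts of Zfp36 start at the gene start and 998 bp downstream of it, so the summit lay upstream of both.

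The 3 other shared peaks of Zfp36 were lower and lay nearer to the starts of neighbouring genes. At +6153 bp, 1501 bp from the start of Plekhg2, which encodes a guanine nucleotide exchange factor, the peak held 59 reads (1.46 RPM) in library 1 and 22 reads (0.881 RPM) in library 2, and AGATAA was 18 bp from the summit. The summits of the libraries were 300 bp apart there, the widest gap of the 19 peaks. At -12597 bp, only 101 bp from the start of Paf1, a gene for a subunit of the PAF1 elongation complex, it held 30 and 25 reads with neither kind of sequence in its window. The peak at +21253 bp, nearest to the ribosomal protein gene Rps16, held 23 and 13 reads and had an AP-1 sequence but no GATA sequence. Only 1.32% of 8865 genes with a locus of like length had 4 or more shared peaks. Of the reads in the Zfp36 locus 41.8% in library 1 and 42.0% in library 2 lay in the windows of its shared peaks, the highest share of the 9 loci.

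Zfp36l1 encodes a paralogue of tristetraprolin that, with Zfp36l2, acts in lymphocyte development. The gene lies at chr12:80107754-80113013 on the minus strand and has 3 exons. Its single shared peak lay 5787 bp upstream, with 41 reads (1.01 RPM, 95% interval 0.726 to 1.37) in library 1 and 17 reads (0.681 RPM, 0.397 to 1.09) in library 2, at 4.90-fold and 4.01-fold over the background. Its window holds AGATAA on the minus strand, 46 bp from the summit. Library 1 alone called another peak at -11087 bp, with 31 reads against 9.

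Zfp36l2, the third paralogue, lies at chr17:84183931-84187947 on the minus strand and has 2 exons. Its shared peak lay downstream of the gene, at +8397 bp, 4381 bp past the gene end, with 45 reads (1.11 RPM, 95% interval 0.810 to 1.49) in library 1 and 23 reads (0.922 RPM, 0.584 to 1.38) in library 2. AGATAG lies on the minus strand of its window, 57 bp from the summit. Library 1 called 4 peaks that library 2 did not, among them 1 in exon 2 at +1997 bp with 26 reads against 3. In this locus 16.3% of 221 windows held no read in either library, with an unbroken run of 6000 bp. Reads without a unique position had been removed, and whether reads could map in that run was not tested. Of genes with loci of like length, 40.2% had as many shared peaks as Zfp36l1 or more, and 39.2% had as many as Zfp36l2 or more.

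**Figure D2:**
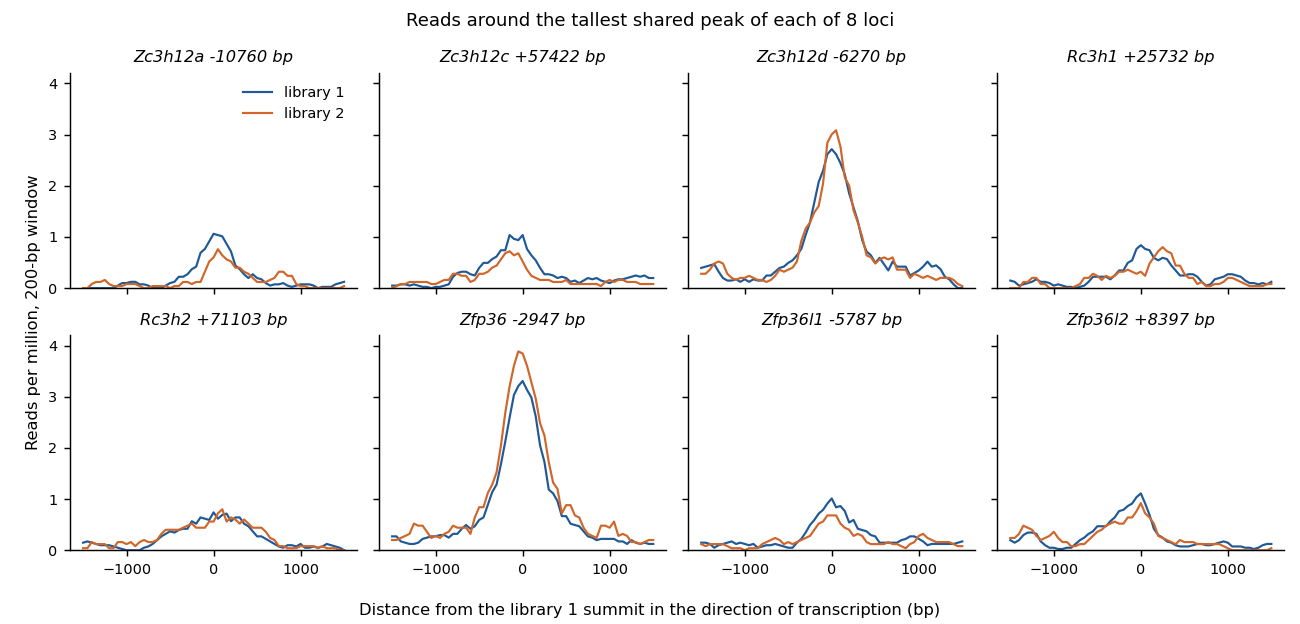
RPM in 200-bp windows every 50 bp around the tallest shared peak of the 8 loci with a peak, against the distance from the library 1 summit in bp. The lines are the 2 libraries. At Zfp36 and Zc3h12d both rise to between 2.72 and 3.89 RPM, and at Rc3h1 the summits are 250 bp apart.

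At 0 of the 19 shared peaks were the 95% intervals of RPM of the libraries apart, in a set selected for a call in both. Library 1 had a median of 0.839 RPM over a range of 0.420 to 3.31, and library 2 a median of 0.761 RPM over a range of 0.441 to 3.89. The median of the lower value was 0.721 RPM, against 0.801 RPM over all 23806 shared peaks, and 5 of the 19 were above that median. Over the local background the peaks were 3.02-fold to 7.35-fold higher in library 1 and 3.16-fold to 6.58-fold in library 2. Summits of the libraries were at most 50 bp apart at 12 of the 19 peaks. Of the summits, 6 lay upstream of the gene, 6 downstream, 6 in an intron and 1 in an exon, and the member gene had the nearest protein-coding start for 13. Outside the shared peaks, library 1 called 21 peaks in the 9 loci that library 2 did not, and library 2 called 2 that library 1 did not, both at Zc3h12c.

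**Figure D3:**
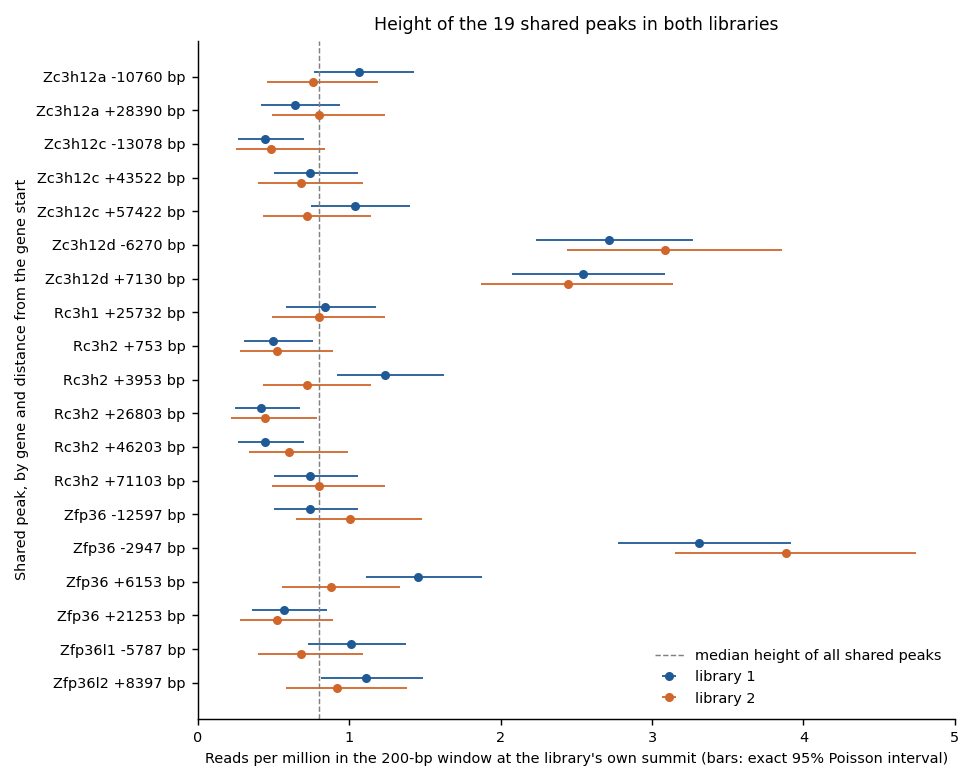
Height of each of the 19 shared peaks in RPM, with exact 95% Poisson intervals, for library 1 and library 2, against the median of all shared peaks (dashed line, 0.801 RPM). The peak upstream of Zfp36 and both peaks of Zc3h12d stand above 2.4 RPM in both libraries, and the other 16 stand at or below 1.46 RPM.

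A longer locus has more room for peaks. Each gene was therefore also set beside the genes of any chromosome with a locus within 20% of its length. In the main setting Rc3h2 and Zfp36 lay above the 90 percentile of those genes, which was 3.8 and 2 shared peaks. No other setting was compared in this way. Zc3h12a, Zc3h12c and Zc3h12d lay above the median and not above the 90 percentile. Rc3h1 was at the median of 1, Zfp36l1 and Zfp36l2 with 1 peak were above a median of 0, and Zc3h12b with none was below a median of 2.

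**Figure D4:**
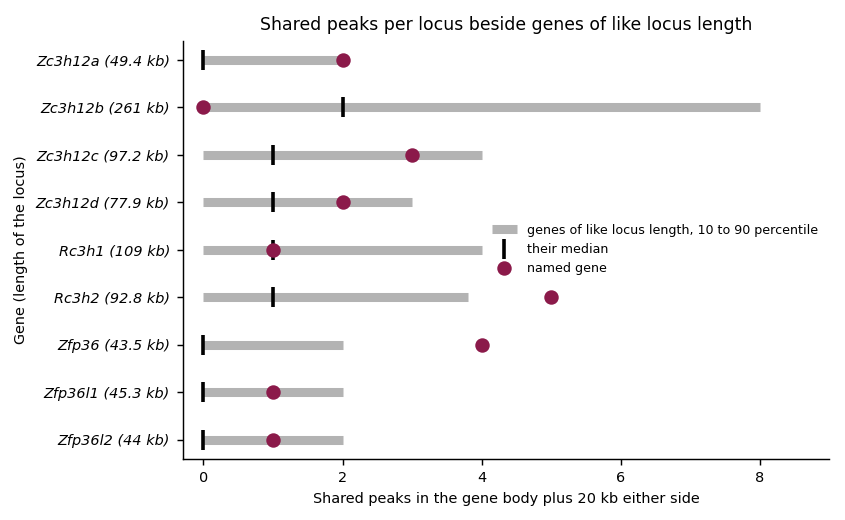
Shared peaks in each locus (points) beside the 10 to 90 percentile (grey bars) and the median (ticks) of protein-coding genes with a locus of like length. Rc3h2 with 5 and Zfp36 with 4 lie past the grey bar, and the other 7 genes lie on it.

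Reads over the whole locus gave another order of the genes. The density was highest at Zfp36, with 1.02 RPM per kb (95% interval 0.977 to 1.07) in library 1 and 1.01 (0.956 to 1.08) in library 2, which was at the 99.3 percentile of all protein-coding genes. Next came Zc3h12d at the 97.6 percentile and Zfp36l2 at the 93.5 percentile, and each of these 3 was apart from the next beyond counting error in both libraries. Zfp36l1, Zc3h12c, Zc3h12a, Rc3h2 and Rc3h1 followed between the 82.4 and 56.3 percentiles, and no neighbours in that order were apart in both libraries. Zc3h12b was last, at the 12.3 percentile and apart from Rc3h1. Outside its shared peak the density of Zfp36l2 was 1.81-fold and 1.88-fold the library mean, and that of Zfp36 outside its own shared peaks was 1.76-fold and 1.74-fold, with the peaks of library 1 alone still included in both.

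At the gene starts the 9 genes were not told apart beyond counting error in both libraries. The highest window within 2 kb of the start was taken in each library on its own. It was 0.543 RPM in library 1 and 0.561 RPM in library 2 at Zfp36, first in the order by the lower value. Zc3h12a, with 0.222 RPM and 0.240 RPM, and Rc3h1, with 0.222 RPM and 0.320 RPM, were tied for the last place. Of the 36 pairs of genes, 0 had intervals apart in both libraries, so the order is not settled at this depth. Rc3h2, Zfp36l2, Zc3h12c and Zfp36l1 followed Zfp36, and then came Zc3h12b and Zc3h12d. Among all protein-coding genes Zfp36 stood at the 85.7 percentile and Zc3h12a and Rc3h1 both at the 34.6 percentile. The window at Zfp36 was only 1.30-fold over the background in library 1 and 0.866-fold in library 2, where the local mean includes the reads of the peak upstream. RefSeq promoter sequences, 250 bases before to 50 after a start, were given for 8 of the 9 genes in 9 windows. Of these windows 2, at Zc3h12c and Zfp36, held a GATA sequence, against 29.8% of 32851 windows of all genes. The one at Zc3h12c was chr9:52149314-52149613, inside the gene, and the window at its gene start, chr9:52168357-52168656, held none. At Zfp36 it was chr7:28379179-28379478, near the transcript start 998 bp downstream of the gene start.

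**Figure D5:**
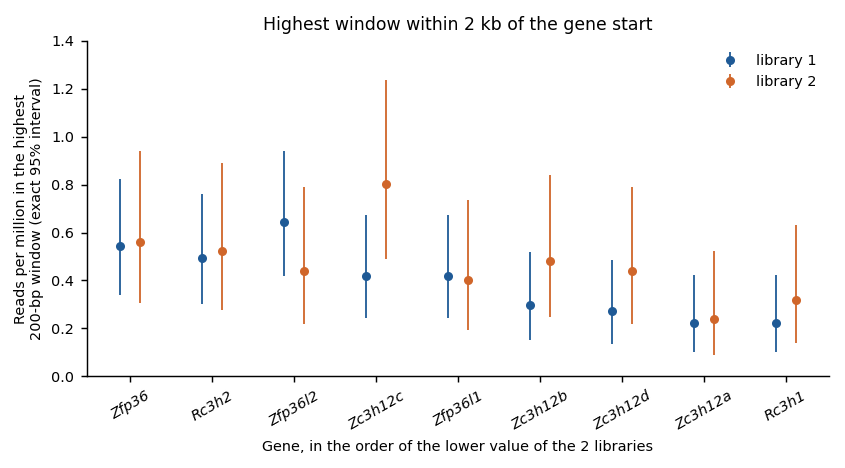
RPM in the highest 200-bp window within 2 kb of the start of each gene, taken in each library on its own, with exact 95% Poisson intervals. Genes are in the order of the lower value, from Zfp36 at 0.543 RPM to Zc3h12a and Rc3h1, tied at 0.222 RPM, and no pair is apart in both libraries.

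Other genes of the same decay pathway were set beside these 9. Of 36 other genes of the pathway, which encode the CCR4-NOT, PAN2-PAN3 and decapping machineries, Upf1 and Smg1, competing AU-rich element binders and the regulators of Regnase and Roquin, 30 (83.3%) had a shared peak in the locus, against 54.8% of all protein-coding genes. In the gene body it was 20 of 36, against 29.4% of all, and at the promoter 8 of 36, against 11.7% of all. The median was 2 shared peaks a locus, as for the 9 genes, and the median locus was 82.6 kb long, against 57.4 kb over all genes. Genes of like locus length were not set beside this list. Cnot6l, a deadenylase of CCR4-NOT, had 7 shared peaks and Cnot4, a ubiquitin ligase linked to the complex, had 6. The tallest peak of Cnot4 lay at -376 bp, with 141 reads (3.48 RPM) in library 1 and 52 reads (2.08 RPM) in library 2. Mapkapk2, the kinase that phosphorylates tristetraprolin, Smg1, the kinase of Upf1, and Malt1, the protease that cleaves Regnase-1 and the Roquins, had 5 each, with tallest peaks of 2.69, 2.12 and 1.48 RPM in library 1 and 2.97, 2.12 and 1.44 RPM in library 2. No shared peak lay in the loci of Bcl10, Cnot7, Cnot8, Dcp1a, Dcp1b and Hnrnpd.

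Among 16 genes whose mRNAs are known targets of these proteins, 13 (81.2%) had a shared peak in the locus, against 54.8% of all protein-coding genes. In the gene body it was 4 of 16, against 29.4% of all, and at the promoter 8 of 16, against 11.7% of all. Their loci were shorter, with a median of 47.0 kb. Il2ra, the alpha chain of the interleukin-2 receptor, had 8 shared peaks, the tallest of 91 reads (2.25 RPM) in library 1 and 63 reads (2.52 RPM) in library 2. Csf2, which encodes GM-CSF, had 5. Tnfrsf4, the gene of the costimulatory receptor OX40, had 4, and its tallest, with 3.23 and 3.49 RPM, was close in height to the peak upstream of Zfp36. Rel, an NF-kappaB subunit, and Nfkbiz, an inhibitor-like regulator of NF-kappaB, also had 4 each. Icos, Ctla4 and Il12b had none.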

How the data were processed

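Gata3 ChIP-seq of TH2 cells was analysed in 2 libraries of the same condition. The authors aligned single reads to GRCm38, removed reads without a unique position and deposited 1 line per read with its position, strand and mapping quality score, a measure of the alignment and not of binding. The submitters' processing notes name Bowtie2 2.3.5.1 and MACS2 2.1.2, and the role of MACS2 is not given in the sources used here. In the deposited lines 0 reads of a library shared a 5′ end and strand, so duplicates had been removed, which limits how tall a peak can be. By the first field of the read names, each library came from 1 instrument, a different one in each.

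Reads were shifted by 100 bp towards the 3′ side and counted in 200-bp windows every 50 bp. Windows were tested with the one-sided exact Poisson test over the windows that held a read, 39497351 of library 1 and 35250442 of library 2. The windows overlap, so their tests depend on each other. Called windows with gaps of up to 100 bp were joined, and the summit was the centre of the highest window. A peak belonged to a locus by its library 1 summit, and peaks were shared if they overlapped by 1 bp or more. The local means include the reads of the peak itself, so a fold is lower than over the flanking sequence. Peak calls were also tested on reads simulated with planted sites. Genes came from GENCODE M21.

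All 9 genes, the genes nearest to their peaks or starting in their loci, and of each list the 5 genes with the most shared peaks (ties by the tallest) are named, and genes without a peak were named after their values were seen. Ifng, a gene of the target list, was named as a TH1 cytokine gene. Protein-coding genes that overlap the loci and are not named above were Las1l (Zc3h12b), Ppil4 (Zc3h12d), Serpinc1 (Rc3h1), Zbtb6 and Zbtb26 (Rc3h2) and Thada (Zfp36l2). The members and lists were chosen with earlier results of these data known. Alternatives were stricter thresholds, other windows, a mapping quality of at least 30, thinning of library 1, close summits, each library alone, other loci and promoters, and other motif settings. Python 3.11.15, NumPy 2.4.6, SciPy 1.17.1 and Matplotlib 3.10.9 were used.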

Additional observations from a re-analysis of the deposited data

How the results depend on the processing

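No paired analysis was possible because the labels hold a single condition. The count of shared peaks in the 9 loci, of genes with 1 in the locus and of shared promoter peaks depended on the threshold. At a q of 1e-10 there were 3 shared peaks at 2 genes (Zfp36 and Zc3h12d), and 3 peaks held a GATA sequence. In the locus 12 decay pathway genes and 7 target genes had a peak, while the share of all protein-coding genes fell to 19.6%. Promoter peaks were found at 0 of the 9 genes, against 2.77% of all. With at least 5-fold over the background there were 6 shared peaks at 5 genes, and 6 peaks held a GATA sequence. In the locus 12 decay pathway genes and 6 target genes had a peak, against 24.4% of all protein-coding genes. Promoter peaks were again found at 0 of the 9 genes, against 2.67% of all. With 100-bp windows there were 11 shared peaks at 5 genes, against 45.6% of all genes, and 9 peaks held a GATA sequence. The promoter held a peak at 0 genes, against 8.54% of all. In the order of the promoter windows 4 of the 9 genes kept their place. With 400-bp windows 2 genes had a promoter peak (Rc3h2 and Zc3h12c), against 12.9% of all, 2 kept their place, and 13 of the 19 summits were met within 200 bp. With library 1 thinned, or with summits within 100 bp, 0 genes had a promoter peak, against 10.9% and 9.52% of all. With each library alone there were 21 to 40 peaks at 8 to 9 genes, 11 to 32 of them with a GATA sequence, and 0 to 6 genes kept their place in the promoter order. Library 1 alone gave all 9 genes a peak in the locus, Zc3h12b included, against 81.2% of all protein-coding genes, and library 2 alone gave 8, against 58.9%. Each library alone gave 2 genes a promoter peak, against 28% of all in library 1 and 13.1% in library 2. In the gene bodies without flanks there were 7 shared peaks at 4 genes, 5 with a GATA sequence. There 4 target genes had a peak, against 29.4% of all protein-coding genes. A promoter of 5 kb upstream to 1 kb downstream held a peak at 2 genes, with no share of all genes at hand to set beside it. With AGATAA as the only sequence 8 peaks held it, and within 50 bp of the summit 7 held a GATA sequence. The 71.0% of all shared summits with a GATA sequence holds for the main setting only. No such share is at hand for the GATA counts under the other settings, so these counts cannot be set beside a background. Of 99 recomputed counts of single genes, 64 were within 1.5 times of the reported count and 35 moved. Why counts moved was not tested beyond what each setting itself changes. Among the 19 shared peaks the lowest heights were 17 reads in library 1 and 11 in library 2.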
